A study of Homo sapiens with 4 samples.

Results

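The miRNAs described here come from 5 hairpin names known from smooth muscle and other mesenchymal cells, miR-143, miR-145, miR-199a, miR-199b and miR-214. They were chosen by name, as every row of the count table whose name without species prefix and arm matched 1 of those 5. The names allow 10 mature arms, and 7 of them are among the 826 miRNAs of the table. These are hsa-miR-143-3p and hsa-miR-145-5p, then miR-145-3p, miR-199a-5p, miR-199a-3p, miR-199b-5p and miR-199b-3p. The table used here has no row for miR-143-5p, miR-214-5p or miR-214-3p.

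Small RNA was sequenced from the human cell line H661, established from a large cell carcinoma of the lung. One group of 2 libraries came from cells given 2.5 µM of the drug entinostat for 8 h. Entinostat belongs to the benzamides and blocks class I histone deacetylases. The other 2 libraries came from cells given the solvent dimethyl sulfoxide (DMSO) for 8 h. All libraries come from 1 cancer cell line grown in medium with fetal serum, with no mesenchymal cells named in the labels, and no label says that replicates were separate cultures. In a bulk library, fewer cells that carry a miRNA and less of it per cell cannot be told apart.

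A miRNA hairpin gives a 5p and a 3p arm, and a loaded arm pairs with target transcripts mainly through its seed, bases 2 to 8. The pair miR-143 and miR-145 is made from 1 host transcript and is best known for holding vascular smooth muscle in its contractile state, while both are scarce in most epithelial cells. The pair miR-199a and miR-214 is made from the transcript DNM3OS, which runs opposite the gene DNM3, and is known from developing mesenchyme, skeleton and fibroblasts. Inhibitors of histone deacetylases keep acetyl groups on histones and can alter the transcription of many genes.

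The mature sequences of the listed arms are shown because the seed sets which targets an arm can pair with, and because identical sequences cannot be counted apart. They are RefSeq entries on GRCh38.p14, written 5′ to 3′ with the seed in capitals, and 6 of the 7 listed arms had an entry there.
miR-143-3p: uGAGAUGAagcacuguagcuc
miR-145-5p: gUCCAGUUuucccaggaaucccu
miR-145-3p: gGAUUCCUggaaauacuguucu
miR-199a-5p: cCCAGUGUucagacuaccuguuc
miR-199a-3p: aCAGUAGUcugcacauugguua
miR-199b-3p: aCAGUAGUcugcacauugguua
The seeds of miR-143-3p and miR-145-5p differ, so the host transcript yields arms of different target sets. The mature letters of miR-199a-3p and miR-199b-3p are the same throughout, so a read cannot be given to 1 of them.

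The hairpins of miR-143 and miR-145 are shown with both mature arms in capitals, since arms of 1 hairpin are compared further on. They lie on the plus strand of chromosome 5 (GRCh38), at chr5:149428918-149429023 for MIR143 and chr5:149430646-149430733 for MIR145, with 1622 bases between them.
MIR143: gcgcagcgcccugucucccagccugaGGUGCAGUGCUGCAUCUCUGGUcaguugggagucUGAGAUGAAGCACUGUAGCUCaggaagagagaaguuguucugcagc
MIR145: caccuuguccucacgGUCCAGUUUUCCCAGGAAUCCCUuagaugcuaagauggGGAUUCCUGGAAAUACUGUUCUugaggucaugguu
Both lie within the long non-coding RNA gene CARMN on the same strand, MIR143 over an annotated exon and MIR145 in an intron (GENCODE release 29). MIR214 and MIR199A2 overlap exons of DNM3OS on the minus strand of chromosome 1, from 172138798 to 172138907 and from 172144535 to 172144644, with 5627 bases between them. The name miR-199a also covers MIR199A1, on chromosome 19 from 10817426 to 10817496, opposite an intron of DNM2. MIR199B lies on chromosome 9 from 128244721 to 128244830, opposite an intron of DNM1. The sources used here do not name the authors' genome build, so these positions come from the reference annotation alone.

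Totals ran from 547875 to 753104 counts in the entinostat libraries and from 561485 to 938559 counts in the DMSO libraries. No library held a value of 1 for any miRNA, among 3304 values of which 750 were 0 and 381 were 2. A 0 can therefore stand for 1 read or more that was left out before the table was made, and no upper limit is given for it.

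These mesenchymal miRNAs were rare in H661 cells, and 5 of the 7 listed arms had 6 counts or fewer over all libraries. The 7 listed arms together had 63 and 90 counts in the entinostat libraries and 68 and 53 counts in the DMSO libraries. Of those 274 counts, miR-143-3p and miR-145-5p held 93.4%. The other 5 arms had 18 counts over the 4 libraries, and 13 of their 20 values were 0. By mean level, miR-143-3p ranked 256 of the 826 miRNAs and miR-145-5p ranked 378, while the other 5 ranked 597 or further down. With no row for miR-214 and few counts for miR-199, the label mesenchymal rests here on miR-143-3p and miR-145-5p alone.

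**Figure D1:**
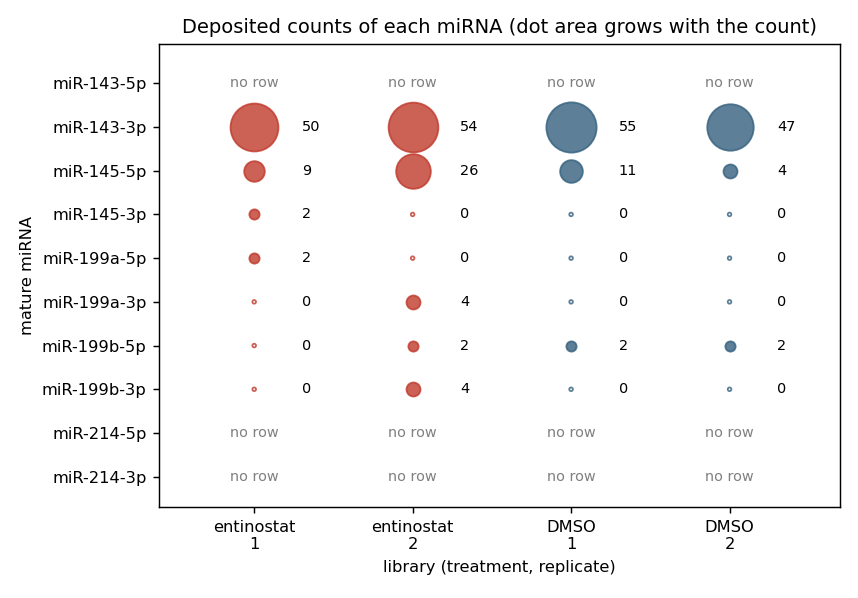
Deposited counts of the 10 mature arms (rows) in the 2 entinostat and 2 DMSO libraries (columns), with the count beside each dot. miR-143-3p has 47 to 55 counts in every library, miR-145-5p has 4 to 26, the other 5 listed arms have 0 to 4, and 3 arms have no row.

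In the cluster on chromosome 5, hsa-miR-143-3p, known from smooth muscle differentiation, was the most abundant. It had 50 and 54 counts in the entinostat libraries and 55 and 47 counts in the DMSO libraries. As counts per 1e+06 counts of a library after scaling by the trimmed mean of M-values (CPM), its level was 91.9 and 71.1 CPM with entinostat and 58.8 and 83.6 CPM with DMSO. The groups overlapped, since DMSO replicate 2 lay above entinostat replicate 2. The 2 highest levels were in the 2 libraries with the lowest totals, entinostat replicate 1 and DMSO replicate 2, and the part of depth in this was not tested. Exact Clopper-Pearson 95% intervals, which cover counting error only, ran from 68.2 to 121 CPM and from 53.4 to 92.7 CPM in the entinostat libraries. In the DMSO libraries they ran from 44.3 to 76.5 CPM and from 61.4 to 111 CPM.

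The difference in miR-143-3p was within the spread between libraries. Its mean was 81.5 ± 14.7 CPM with entinostat and 71.2 ± 17.5 CPM with DMSO (SD, n = 2). The log2 fold change was 0.22 with a standard error of 0.26 and a 95% interval of -0.37 to 0.80, a fold of 1.16 (edgeR quasi-likelihood test, Benjamini-Hochberg adjusted p = 0.812). A rise of up to 1.74-fold and a fall to 0.775 of the DMSO level lie inside that interval. Without DMSO replicate 1 the log2 fold change was -0.067, and without entinostat replicate 1 it was 0.026. Without DMSO replicate 2 it was 0.42 and without entinostat replicate 2 it was 0.41, so the direction rested on which library was kept.

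From the same host transcript, hsa-miR-145-5p, known for restraining pluripotency factors and for smooth muscle identity, was the scarcer arm and the one that stood farther apart between treatments. It had 9 and 26 counts in the entinostat libraries and 11 and 4 counts in the DMSO libraries. The levels were 16.5 and 34.2 CPM with entinostat and 11.8 and 7.11 CPM with DMSO. Both entinostat libraries lay above both DMSO libraries, as was so for 20.7% of the 401 tested miRNAs. Testing required about 15.2 CPM in at least 2 libraries, which only the entinostat libraries reached for miR-145-5p. A miRNA tested on that ground lies apart in this direction by the rule itself. The share therefore does not show how unusual the separation is. Counting intervals overlapped for entinostat replicate 1 (7.56 to 31.4 CPM) with DMSO replicate 1 (5.87 to 21.0 CPM) and DMSO replicate 2 (1.94 to 18.2 CPM). The interval of entinostat replicate 2, from 22.4 to 50.1 CPM, lay above those of both DMSO libraries and overlapped that of entinostat replicate 1.

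The mean of miR-145-5p was 25.4 ± 12.5 CPM with entinostat and 9.44 ± 3.28 CPM with DMSO (SD, n = 2). The log2 fold change was 1.40 with a standard error of 0.54 and a 95% interval of 0.16 to 2.63, a fold of 2.63 (1.12 to 6.19). This value did not pass the test over all miRNAs (edgeR quasi-likelihood test, Benjamini-Hochberg adjusted p = 0.595), although its unadjusted p was 0.0312. By size it was the highest log2 fold change of the 401 tested miRNAs (1 of 401 at or above it, 0.249%), and by unadjusted p it was number 19. Testing required a level of about 15.2 CPM in at least 2 libraries, and only the entinostat libraries reached it for miR-145-5p. It entered the test through the entinostat libraries alone, so its place among the tested miRNAs is given as a description. Without entinostat replicate 2 it was not tested, and the ratio of means was 1.75, against 2.69 with all libraries.

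**Figure D2:**
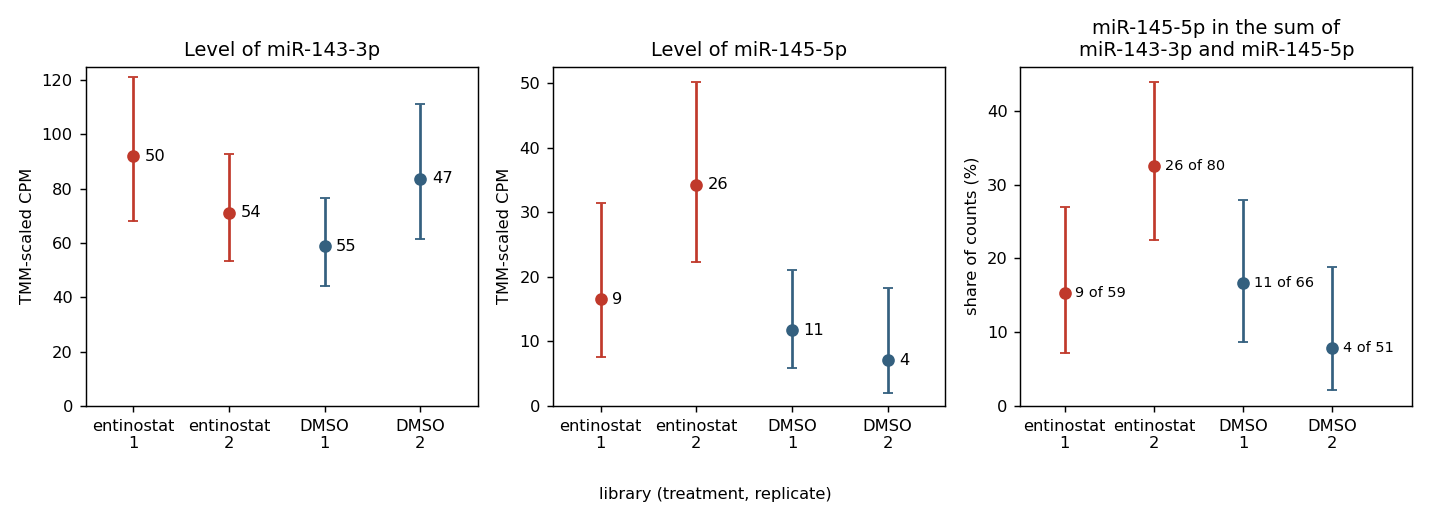
Levels of miR-143-3p (left) and miR-145-5p (middle) in TMM-scaled CPM, and the share of miR-145-5p in the counts of the pair in percent (right), with 1 point per library labelled by its counts and bars for exact 95% intervals of counting error. The levels of miR-143-3p overlap between treatments, those of miR-145-5p lie at 16.5 and 34.2 CPM with entinostat and 11.8 and 7.11 CPM with DMSO, and the shares overlap.

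Neither tested arm was called between entinostat and DMSO. The edgeR test called 0 of 401 miRNAs, a background of 0%, at an adjusted p under 0.05. At an unadjusted p under 0.05 it gave 27 of the 401 (6.73%), and miR-145-5p was among them. That place is a description only, since miR-145-5p entered the test through the entinostat libraries alone. DESeq2 and limma-voom called 0 of the listed arms and 0 of all miRNAs. Fitted log2 fold changes lay above 0 for both arms and for 208 of the 401 tested miRNAs (51.9%).

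At the low level of miR-145-5p, fold changes of other miRNAs were widely spread in both directions. The 78 other tested miRNAs with a mean level within 2-fold of its own had log2 fold changes from -1.84 to 1.30, with a median of -0.034. Their standard errors had a median of 0.45 log2 units, and 13 of the 78 had one at least as large as that of miR-145-5p. For miR-143-3p the 104 other miRNAs of like level had log2 fold changes from -0.996 to 0.86, with a median of 0.013, and 28 of them lay at or above its own value.

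**Figure D3:**
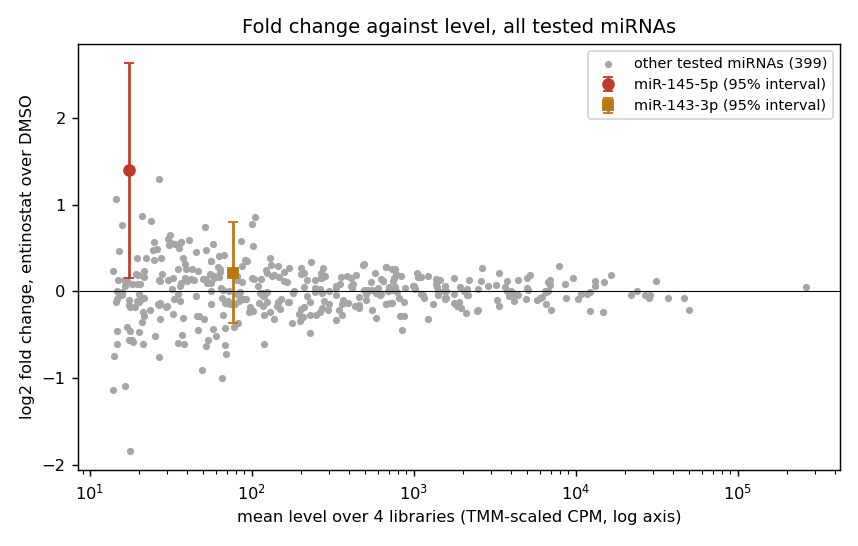
Log2 fold change of entinostat over DMSO against mean level (TMM-scaled CPM, log axis) for the 401 tested miRNAs, with 95% intervals for miR-145-5p and miR-143-3p. Fold changes spread more widely at low levels, where miR-145-5p lies highest at 1.40 and miR-143-3p lies at 0.22.

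The balance of miR-145-5p and miR-143-3p needs no scaling between libraries, because both are read from the same library. The share of miR-145-5p in the counts of the pair was 15.3% (9 of 59) and 32.5% (26 of 80) with entinostat. With DMSO it was 16.7% (11 of 66) and 7.84% (4 of 51). Entinostat replicate 1 lay below DMSO replicate 1, so the groups overlapped. The exact 95% intervals were 7.22 to 26.99% and 22.4 to 43.9% with entinostat, and 8.62 to 27.9% and 2.18 to 18.9% with DMSO. The share averaged 23.9 ± 12.2% with entinostat and 12.3 ± 6.24% with DMSO (SD, n = 2). The ratio of miR-143-3p to miR-145-5p ran from 2.08 to 5.56 in entinostat libraries and from 5 to 11.8 in DMSO libraries. In all 4 libraries miR-143-3p had the higher count, but ligation can recover sequences unequally, so this is a ratio of counts and not of molecules.

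The minor arms of the cluster were at the edge of detection. The strand miR-145-3p had 2 and 0 counts in the entinostat libraries and 0 and 0 counts in the DMSO libraries, against 50 counts over all libraries for miR-145-5p of the same hairpin. For the hairpin of miR-143 the table held 206 counts of the 3p arm and no row for the 5p arm. In the table used here, counts of the miR-143 hairpin thus came from the 3p arm and nearly all counts of the miR-145 hairpin from the 5p arm.

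The miR-199 arms, known from fibroblasts and from control of growth signalling, had 0 to 4 counts in any library. For miR-199a-5p the counts were 2 and 0 with entinostat and 0 and 0 with DMSO. For miR-199b-5p they were 0 and 2 with entinostat and 2 and 2 with DMSO, so this arm was the one seen in 3 of the 4 libraries. For miR-199a-3p they were 0 and 4 with entinostat and 0 and 0 with DMSO.

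The row of miR-199b-3p held the same counts as miR-199a-3p in every library, 0 and 4 with entinostat and 0 and 0 with DMSO. Among the listed names with a RefSeq sequence there were 2 pairs of names with 1 mature sequence, and both pairs had the same 4 counts. The 4 counts in entinostat replicate 2 may thus be the same reads entered under both names, and the rule used for such reads is not given in the sources used here. None of these 5 arms was tested, and no fold change is given for counts this low.

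Summed over the 7 listed arms, levels were 116 and 118 CPM in the entinostat libraries and 72.7 and 94.3 CPM in the DMSO libraries. Both entinostat libraries lay above both DMSO libraries, as was so for 20.7% of the 401 tested miRNAs taken singly. Taken alone, miR-143-3p overlapped between the groups. The log2 ratio of the means of the sum was 0.49, and 0.46 without miR-199b-3p, whose counts may repeat those of miR-199a-3p. With the 2 tested arms alone it was 0.41, and it is given without a test, since it is a sum over chosen miRNAs. Leaving out 1 library moved it between 0.31, without DMSO replicate 1, and 0.69, without DMSO replicate 2.

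Over the 4 libraries, the tested miRNAs nearest to miR-143-3p in pattern were miR-10a-3p and miR-576-3p. Nearness was the root mean square difference of log2 CPM, each miRNA centred on its own mean, among miRNAs of mean level within 2-fold. It was 0.059 log2 units for miR-10a-3p and 0.087 for miR-576-3p, against a median of 0.32 over the 104 compared. Levels of miR-10a-3p were 162 and 122 CPM with entinostat and 111 and 141 CPM with DMSO, in the same order of libraries as miR-143-3p. For miR-145-5p the nearest were miR-146b-3p at 0.30 and miR-3934-5p at 0.34, against a median of 0.76 over 78. Levels of miR-146b-3p were 34.9 and 42.1 CPM with entinostat and 20.3 and 8.89 CPM with DMSO. The arms miR-143-3p and miR-145-5p were not compared with each other by this measure, because their mean levels differ by more than 2-fold. The nearest miRNAs were picked for the smallest distances, so they lie below these medians by construction. Whether they share regulation with the arms was not tested.

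Summed, a list of other miRNAs also linked to mesenchymal or smooth muscle cells was far more abundant than the 7 arms. The list of miR-10b, miR-22, miR-28, miR-152, miR-218 and miR-490 had 9 rows, of which 7 were tested and 0 were called, with a median log2 fold change of -0.036 against 0.00466 over all tested miRNAs. Its summed level was 7747 and 7471 CPM with entinostat and 8192 and 8118 CPM with DMSO, and miR-490 had no row. The highest of these was miR-10b-5p, also known from HOX gene regions, at 3145 and 3167 CPM with entinostat and 3424 and 3317 CPM with DMSO (log2 fold change -0.095, edgeR adjusted p = 0.741). Next was miR-28-3p, at 2082 and 2135 CPM with entinostat and 2189 and 2136 CPM with DMSO (log2 fold change -0.036, edgeR adjusted p = 0.925). These miRNAs are also common in epithelial and cancer cells, so their level does not mark mesenchyme.

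Markers of other cell types were mostly low, apart from 1 endothelial miRNA. Striated muscle names summed to 204 and 247 CPM with entinostat and 240 and 222 CPM with DMSO. Nearly all of that was miR-486-5p, also a red cell miRNA, at 187 and 241 CPM with entinostat and 231 and 217 CPM with DMSO. The muscle-defining miR-133a-3p had 5 and 3 counts with entinostat and 5 and 3 counts with DMSO, and miR-206, miR-133b, miR-208a and miR-208b had no row. Epithelial names summed to 77.2 and 59.2 CPM with entinostat and 56.6 and 40.9 CPM with DMSO, and miR-200a, miR-141 and miR-429 had no row. Within them miR-200c-3p, which holds epithelial identity, was at 42.3 and 46.1 CPM with entinostat and 33.1 and 24.9 CPM with DMSO (log2 fold change 0.57, edgeR adjusted p = 0.595), and miR-203a-3p was at 18.4 and 7.90 CPM with entinostat and 20.3 and 12.5 CPM with DMSO. Both the epithelial names and the 7 mesenchymal arms had their higher sums with entinostat, though the log2 fold change of miR-203a-3p was -0.46. For the epithelial names, entinostat replicate 2 at 59.2 CPM lay close to DMSO replicate 1 at 56.6 CPM. Those sums include miR-205-5p, which was not tested, at 16.5 and 5.27 CPM with entinostat and 0 and 3.56 CPM with DMSO. The order of the epithelial sums without miR-205-5p was not tested. The other mesenchymal list had its lower sums with entinostat, at 7747 and 7471 CPM against 8192 and 8118 CPM with DMSO. Among the 401 tested miRNAs taken singly, the groups lay apart with entinostat higher in 20.7% and lower in 20%.

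The endothelial miR-126-3p was at 2240 and 1691 CPM with entinostat and 1798 and 1994 CPM with DMSO, and miR-126-5p had 4 and 8 counts with entinostat and 10 and 0 counts with DMSO. Of the blood names, miR-142, miR-223, miR-451a and miR-144 had no row and miR-150-5p had 3 and 0 counts with entinostat and 0 and 2 counts with DMSO. The liver miRNA miR-122-5p had 0 and 0 counts with entinostat and 5 and 0 counts with DMSO. Of the 11 tested rows in these lists and the other mesenchymal list, 0 were called. The part of any other cell type or of serum RNA in the mesenchymal counts was not tested.

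**Figure D4:**
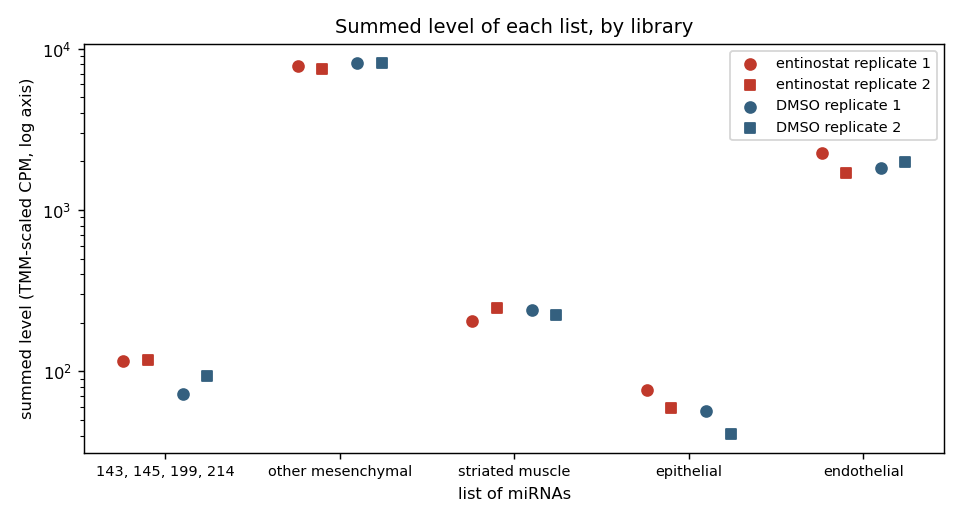
Summed level per library (TMM-scaled CPM, log axis) of the 7 arms and of 4 other marker lists, with entinostat libraries left of DMSO libraries in each list. The 7 arms sum to 116 and 118 CPM with entinostat and 72.7 and 94.3 CPM with DMSO, far below the other mesenchymal list at 7471 to 8192 CPM. The miRNAs of that list are also common in epithelial and cancer cells.

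The log2 fold change of miR-145-5p was above 0 under every scaling and tool in which it was tested, while its call was absent under all of them. Both entinostat libraries lay above both DMSO libraries, so reruns on the same libraries could hardly reverse the sign. The constant sign is therefore a description and adds no support. Over 17 alternatives in which it was tested, its log2 fold change ran from 1.12, without DMSO replicate 2, to 1.84, without DMSO replicate 1. The lowest adjusted p among these alternatives was 0.289, with the edgeR likelihood ratio test, and the highest was 0.999, with DESeq2. That range leaves out the setting without entinostat replicate 2, where the arm was not tested. There the ratio of means was 1.75, against 2.69 with all libraries. For miR-143-3p the log2 fold change was above 0 in 17 of 18 alternatives and the lowest adjusted p was 0.642, with upper quartile factors. Those factors put the median over the 401 tested miRNAs at 0.12, so 0.33 for miR-143-3p and 1.52 for miR-145-5p are to be read against that shift.

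**Figure D5:**
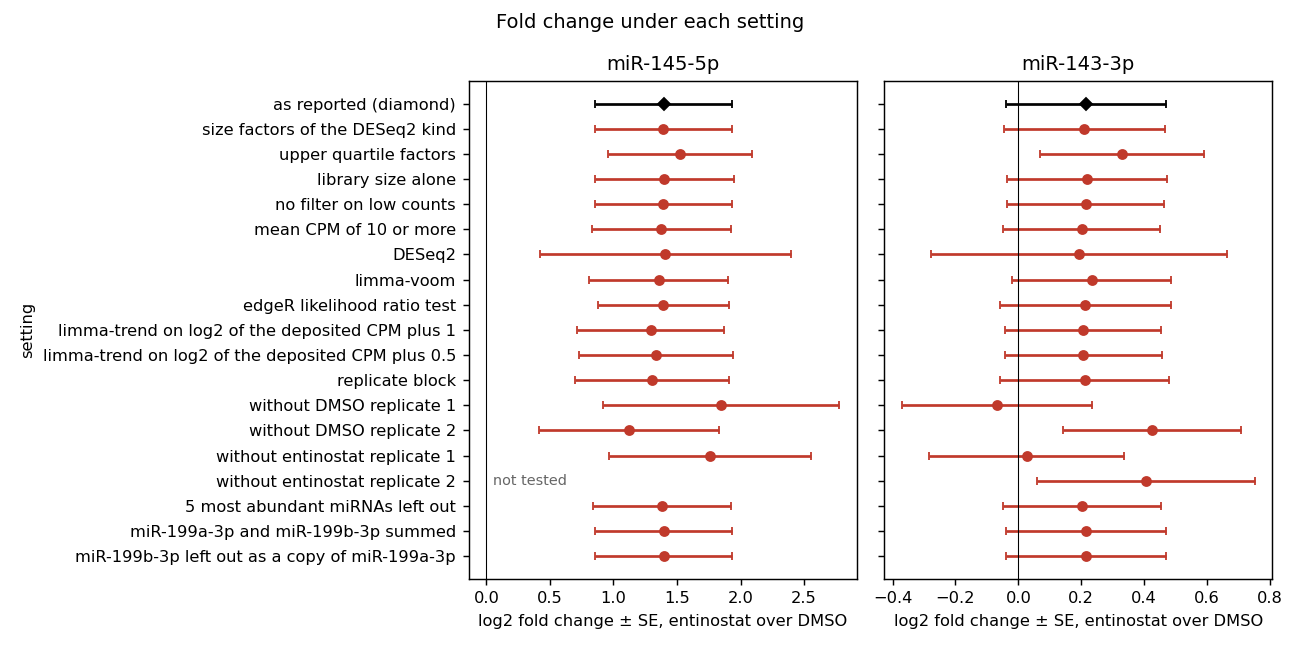
Log2 fold change of entinostat over DMSO with its standard error for miR-145-5p (left) and miR-143-3p (right) under each setting, with the reported value at the top as a diamond. All tested values of miR-145-5p lie above 0, but it was not tested without entinostat replicate 2. For miR-143-3p the value is -0.067 without DMSO replicate 1.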

How the data were processed

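The measurement was small RNA sequencing of H661 cells, 2 libraries with entinostat and 2 with DMSO. The authors deposited raw counts, whole numbers for each mature name, and CPM, which equal the count per 1e+06 counts of a library. Per the labels' protocols, total RNA went into a New England Biolabs small RNA preparation, and per the submitters' processing notes bcl2fastq 2.18 was run. Aligner, counting tool, annotation and build: not given in the sources used here. Titles gave the groups and replicate numbers.

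The fit was edgeR 4.0.16 in R 4.3.3 (TMM scaling, quasi-likelihood test, a treatment term alone) on the 401 rows that filterByExpr kept at a minimum count of 10 and a minimum total of 15. Calls needed an adjusted p (Benjamini-Hochberg, over these rows) under 0.05. The common dispersion was 0.00648. The test was checked on simulated counts in which every row had that common dispersion, which does not check it for rows that vary more between libraries. Replicates may be technical, and a p-value reflects only how these libraries vary. Alternatives used DESeq2 1.42.0, limma 3.58.1, other scalings and filters, a replicate block and each library left out. No limit is given for a count of 0, since the table holds no value of 1. All listed arms, the 2 nearest miRNAs of each tested arm and the 2 most abundant rows of each marker list were named. Members, lists and rules were chosen with earlier results of these data known, and marker lists were recalled without a database. Hairpin positions came from GENCODE release 29 and sequences from RefSeq. Intervals were computed in Python 3.11.15 with SciPy 1.17.1.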

Additional observations from a re-analysis of the deposited data

How the results depend on the processing

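The count of called listed arms was 0 in all 18 alternatives. The count over all miRNAs was 4 with the edgeR likelihood ratio test, and ran from 0 to 5 when 1 library was left out, reaching 5 without entinostat replicate 1; the cause was not tested. For miR-143-3p the log2 fold change ran from -0.067, with DMSO replicate 1 left out, to 0.42. For miR-145-5p it ran from 1.12 to 1.84 with 1 library left out, and it was not tested without entinostat replicate 2, where its remaining libraries fell below the filter on low counts. The log2 ratio of summed CPM ran from 0.31 to 0.69. With the replicate number as a block, values were 0.21 for miR-143-3p and 1.30 for miR-145-5p (edgeR adjusted p = 0.878 and 0.769), and 0 miRNAs were called. Deviations of the replicate 1 libraries from their group means correlated at -0.12 over 401 miRNAs, and a block with the numbers crossed, chosen after seeing the data, also called 0. Leaving out miR-199b-3p as a copy of miR-199a-3p, also chosen after seeing the data, left the fitted values of miR-143-3p and miR-145-5p as they were and put the log2 ratio of summed CPM at 0.46, against 0.49 with it, with 113 CPM in place of 118 CPM in entinostat replicate 2. The values of miR-145-5p rest on 50 counts in all, and the part of depth was not tested.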

Other observations

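One more listed miRNA, miR-3129-5p, shares the seed of miR-199a-3p and miR-199b-3p and had more counts than either. It had 10 and 11 counts in the entinostat libraries and 16 and 11 counts in the DMSO libraries. That was 48 in all, against 4 counts under each of those miR-199 names. Ligation can recover sequences unequally and a 0 can stand for reads left out, so this compares counts and not molecules. Levels of miR-3129-5p were 18.4 and 14.5 CPM with entinostat and 17.1 and 19.6 CPM with DMSO. The groups overlapped, with a log2 fold change of -0.16 (edgeR quasi-likelihood test, adjusted p = 0.927). Of miRNAs that share the seed of miR-143-3p, miR-4770 and miR-6088 had no row in the table used here.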
